A study of Rattus norvegicus with 12 samples.

Results

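Urethral tissue from male rats with a mechanical urethral injury followed by rapamycin was compared with urethral tissue from sham rats without urethral injury. The comparison took the 3 libraries labelled urethral injury with rapamycin and the 3 labelled sham control, which is 6 of the 12 libraries of the series, and all genes of the count table entered it. The other libraries are 3 from injury without a named treatment and 3 from injury with a tetrahedral DNA nanostructure (TDN). They are used here for the shared filter, scaling and estimate of the spread, and for direct comparisons with rapamycin. The sham group differs from the rapamycin group in both the injury and the drug, so the contribution of each cannot be told apart from this comparison alone. The labels give neither strain, age, dose, route nor time of harvest, and do not say whether sham rats received vehicle or an operation. Whether each library of a group was a different animal is not stated, and the spread behind the p-values may therefore be technical.

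The male urethra is a layered tube of urothelium, vascular connective tissue and muscle, and its mechanical injury is used as a model of scarring and stricture. Rapamycin binds the protein FKBP12, and the complex inhibits mTOR complex 1, a kinase that promotes protein synthesis and cell growth and restrains autophagy. In wounds and fibrotic tissue rapamycin is known to restrain the proliferation of fibroblasts and lymphocytes.

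The table names its 32623 genes by Ensembl ID alone, and the RefSeq gene table used here (assembly GRCr8) lists no Ensembl IDs, so the IDs could not be paired with symbols. Genes are therefore given by ID, limited to 2 in each direction, and the labelled tissue was not checked against marker genes. Total counts ran from 50336330 to 51078180 in sham and from 44765817 to 54590459 in rapamycin. At least 1 count was found for 18989 to 19254 genes in sham, and for 18799, 17475 and 19077 genes in rapamycin replicates 1, 2 and 3. Rapamycin replicate 2 stood apart from the other libraries: its upper quartile was 391 counts per gene, beside 780.5 and 924 in the other rapamycin libraries and 899 to 978.5 in sham, and its TMM scaling factor was 0.660, beside 0.873 and 1.07. Main counts of genes are given below with and without it. The mean chi-square per gene between pairs of rapamycin libraries was 337 to 1207, beside 67.1 to 93.0 between pairs of sham libraries. Pairs of injury libraries without treatment gave 247 to 630, overlapping the rapamycin range, and pairs of TDN libraries 55.3 to 121. The median absolute log2 difference over the 17521 tested genes was 0.527 between replicates 1 and 3, 0.973 between replicates 1 and 2 and 1.24 between replicates 2 and 3.

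In rapamycin-treated injured tissue more genes were called higher than lower, a balance that depended on the tool. Of 17521 genes tested, 1672 rose (9.54% of genes tested) and 490 fell (2.8%), or 12.3% together (quasi-likelihood test of edgeR, calls at an adjusted p under 0.05 by the Benjamini-Hochberg method). The median log2 fold change of the rising genes was 2.26, a 4.78-fold difference, with the middle 50 percent of genes between 1.62 and 3.30. For the falling genes the median was -1.66, a 3.16-fold difference, with the middle 50 percent between -2.35 and -1.18. In bulk tissue, fewer cells of a type and less RNA per cell cannot be told apart. Because the genes were picked on the libraries that give these medians, the medians are inflated. Over all tested genes the median was -0.05, and the median standard error of a log2 fold change was 0.46.

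The number of genes called rested on single libraries. It was 1, 1 and 20 without sham replicates 1, 2 and 3, and 79, 908 and 7249 without rapamycin replicates 1, 2 and 3. Libraries in neither group enter through the shared filter, scaling and spread, which were all redone at each omission. The number called was 2640, 840 and 3936 without injury replicates 1, 2 and 3. It was 576, 422 and 468 without TDN replicates 1, 2 and 3. A fit of the 6 sham and rapamycin libraries alone called 33 genes higher and 1 lower. DESeq2 called 3664 higher and 2099 lower, and limma voom 874 higher and 909 lower. The excess of higher genes, 77.3% of the calls, was thus 63.6% in DESeq2, 49.0% in voom, 50.1% in voom with sample quality weights, 54.8% with the replicate number as a block and 55.2% without rapamycin replicate 3. In none of the 23 alternative settings was a gene called in the direction opposite to its call here. The settings reuse the same counts, so an opposite call was unlikely from the start and its absence is no independent check. All 3 tools (edgeR, DESeq2 and voom) called 850 of the 1672 higher genes and 463 of the 490 lower genes.

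**Figure D1:**
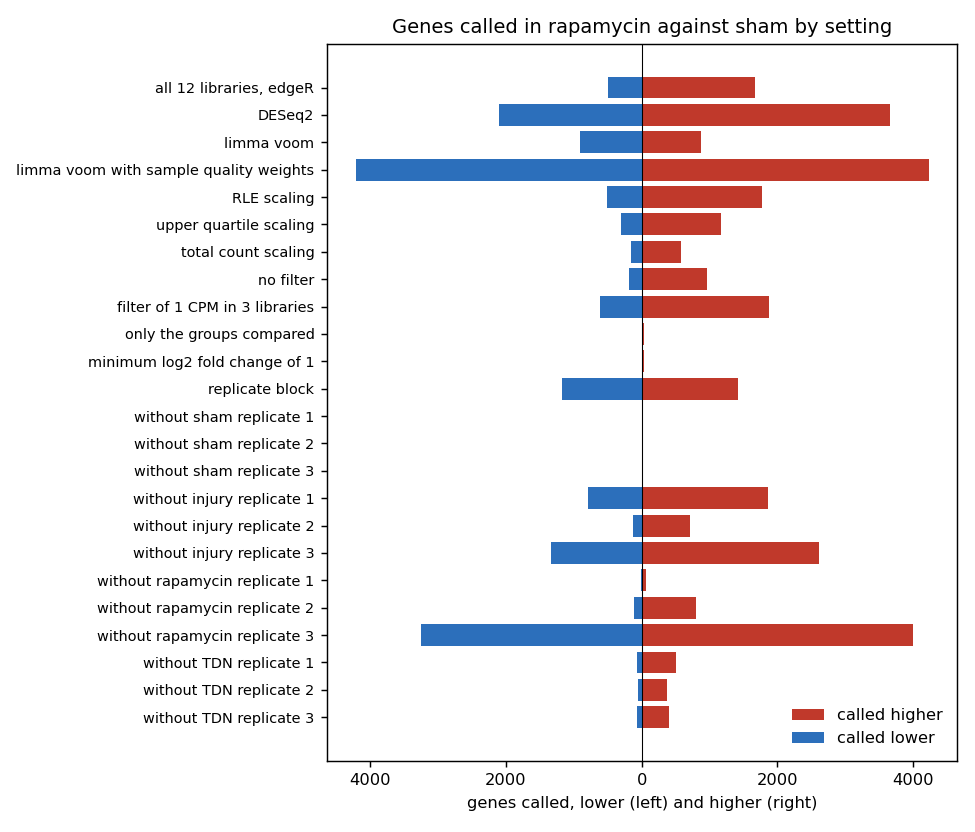
Number of genes called lower (bars to the left) and higher (bars to the right) in rapamycin than in sham, for the edgeR fit of all 12 libraries and for each alternative setting. Leaving out any sham library left at most 20 calls, and leaving out rapamycin replicate 3 gave 7249.

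Among the rapamycin libraries, the list of calls depended most on replicate 1 and less on replicate 2. Without replicate 1, 69 genes were higher and 10 lower, of which 68 and 6 were among the genes called with all libraries. Without replicate 2, 794 genes were higher and 114 lower, of which 673 and 87 were among them. Without replicate 3, 1666 of the higher and 489 of the lower genes were still called. The 68 genes higher and 5 lower that were called both with all libraries and without each rapamycin library in turn had median log2 fold changes of 3.74 and -2.41. Replicate 2 held the highest of the 3 rapamycin values for 1109 of the 1672 higher genes (66.3%), where it held the highest value for 36.9% of all tested genes. It held the lowest value for 324 of the 490 lower genes (66.1%), beside 46.6% of all tested genes. Replicate 3 lay at the other end, with the lowest rapamycin value for 1347 of the higher genes and the highest for 369 of the lower genes. The role of RNA quality or tissue makeup in the difference between these libraries was not tested.

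The same order was seen in the size of the change. The higher genes had a median log2 difference from the sham mean of 1.97 in rapamycin replicate 1, 2.76 in replicate 2 and 1.15 in replicate 3. Their medians in single sham libraries, each set against the other 2, lay between -0.02 and 0.01. The lower genes had medians of -1.76, -2.14 and -1.24 in rapamycin replicates 1, 2 and 3, beside -0.12 to 0.09 in sham. The genes were called on these same libraries, which by itself places the medians on the called side, so only their order is described: replicate 3 lay nearest to sham in both sets. Genes called without replicate 2 had, in replicate 2 itself, medians of 2.28 for the 792 higher genes and -2.47 for the 113 lower genes that are in the table of all libraries, beside 2.32 and -1.73 in the mean of the libraries that chose them. For genes called without replicate 3, the medians in replicate 3 were 0.46 (3973 higher genes) and -0.61 (3242 lower genes), beside 1.65 and -2.15 in the libraries that chose them. Genes called without replicate 1 were few, with medians in replicate 1 of 3.53 (69 higher genes) and -1.21 (10 lower genes), beside 3.74 and -3.47. All these values are set against the same 3 sham libraries that entered the calls, so they are a description and no independent check.

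**Figure D2:**
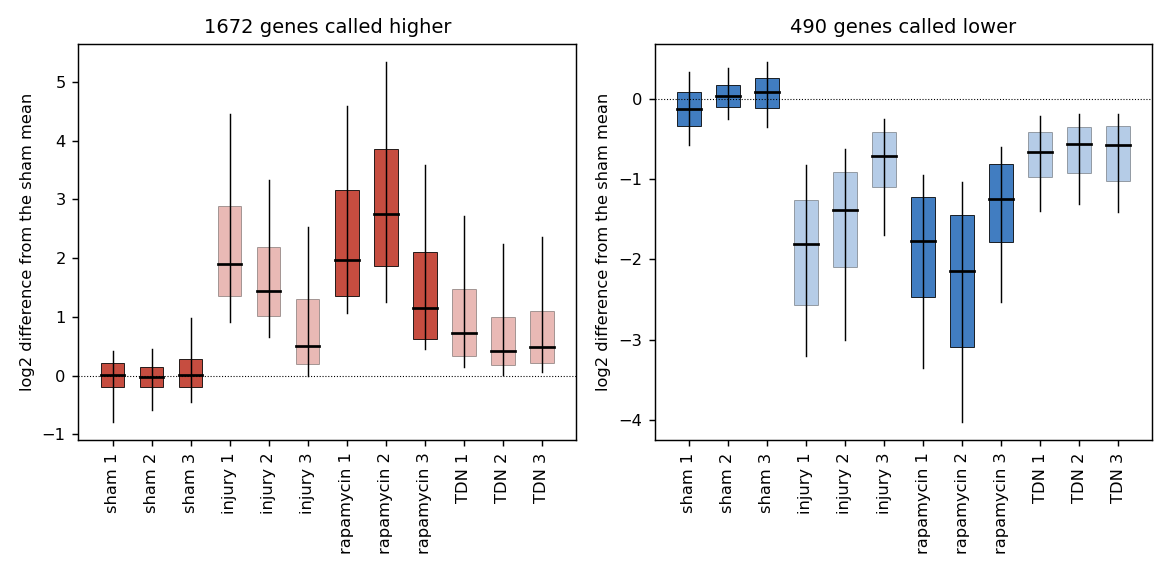
Log2 difference in CPM from the sham mean for the 1672 genes called higher (left) and the 490 called lower (right) in rapamycin than in sham, in each of the 12 libraries; bars span the middle 50 percent of genes, black lines are medians and thin lines leave out the lowest and highest 10 percent of genes. Each sham library is set against the mean of the other sham libraries, and injury and TDN libraries are drawn pale. Medians of the higher genes were 1.97, 2.76 and 1.15 in rapamycin, and rapamycin replicate 3 lay nearest to sham in both panels.

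The higher genes took up a larger part of the library after injury and rapamycin. They held 6.99, 7.17 and 7.03% of all counts in the sham libraries and 24.0, 30.0 and 14.1% in rapamycin replicates 1, 2 and 3, which is 7.06% ± 0.09 against 22.7% ± 8.0 (SD, n = 3 each). The rapamycin and sham libraries did not overlap, and the rapamycin libraries were spread more widely. The lower genes held 3.07, 3.40 and 3.34% of counts in sham and 0.959, 0.591 and 1.59% in rapamycin replicates 1, 2 and 3, or 3.27% ± 0.18 against 1.05% ± 0.51 (SD, n = 3 each). The mean of rapamycin replicates 1 and 3 was 19.1% for the higher and 1.28% for the lower genes. Injury replicates 1, 2 and 3 without treatment held 21.5, 16.2 and 11.8% for the higher and 0.923, 1.30 and 2.11% for the lower genes. Both ranges overlapped those of rapamycin. The TDN libraries held 9.86 to 10.6% and 2.05 to 2.29%, between sham and rapamycin. These shares are of genes chosen for their change in the same libraries and are given as a description.

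**Figure D3:**
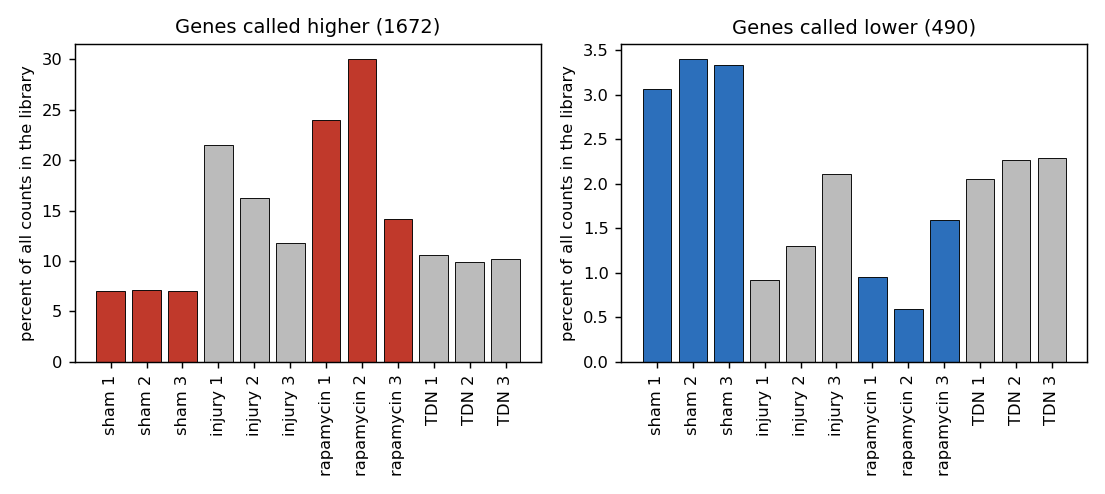
Percent of all counts in each library that fell on the 1672 genes called higher (left) and the 490 called lower (right) in rapamycin than in sham; sham and rapamycin libraries are coloured and the others grey. The higher genes held 6.99 to 7.17% in sham, 14.1 to 30.0% in rapamycin and 11.8 to 21.5% in injury without treatment.

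Large changes were found in both directions. Of the 1672 higher genes, 1003 (60.0%) had a log2 fold change of at least 2 and 285 (17.0%) of at least 4. Of the 490 lower genes, 181 (36.9%) had a log2 fold change of -2 or below and 30 (6.12%) of -4 or below. Over all tested genes, called or not, 9.18% lay at or beyond 2 upwards and 6.46% downwards, and 2.27% and 0.582% lay at or beyond 4. Without rapamycin replicate 2, 517 of 794 higher genes (65.1%) and 43 of 114 lower genes (37.7%) lay at or beyond 2, and 156 and 13 at or beyond 4.

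The change also crossed a level of 1 CPM for some genes. There were 149 called genes under 1 CPM (counts scaled to library size) in every sham library and over 1 CPM in every rapamycin library, and 39 called genes with the reverse pattern. Over all tested genes, 200 and 227 had these patterns. Without rapamycin replicate 2, 121 and 10 called genes had them, of 283 and 234 tested genes. In the whole table of 32623 genes, 25 had at least 10 counts in each rapamycin library and none in sham, of which 20 were called, and 21 had at least 10 counts in each sham library and none in rapamycin, of which 11 were called. These counts were 51 and 27 genes without rapamycin replicate 2. Among the genes called higher, 39 had no count in any sham library, and with these set at a floor of 3 counts per library the median log2 fold change was 2.25. Among the genes called lower, 19 had no count in any rapamycin library, and the median with the floor was -1.65.

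Calls were found at all expression levels. The tested genes were divided by mean log2 CPM over the 12 libraries into 4 groups of 4380 or 4381 genes, bounded at 2.05, 13.5 and 42.5 CPM. From the lowest to the highest group, 5.77, 10.1, 11 and 11.3% of the genes were called higher and 2.49, 3.45, 2.72 and 2.53% lower. The median standard error of the log2 fold change was 0.96 in the lowest group, 0.50 in the next, 0.34 in the third and 0.30 in the highest, so only larger changes could be called among weakly expressed genes. The called higher genes had a median log2 fold change of 3.97 in the lowest group and 1.86 in the highest, and the called lower genes had medians of -2.63 and -1.19. The 1672 higher genes included 517 with a mean of at least 100 CPM in rapamycin. The 490 lower genes included 77 with such a mean in sham. Of all 17521 tested genes, 2697 had such a mean in the higher of the sham and rapamycin groups. These counts were not made without rapamycin replicate 2. Without rapamycin replicate 2, the shares called from the lowest to the highest group were 3.07, 5.76, 5.31 and 3.65% higher and 0.515, 0.941, 0.493 and 0.605% lower.

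**Figure D4:**
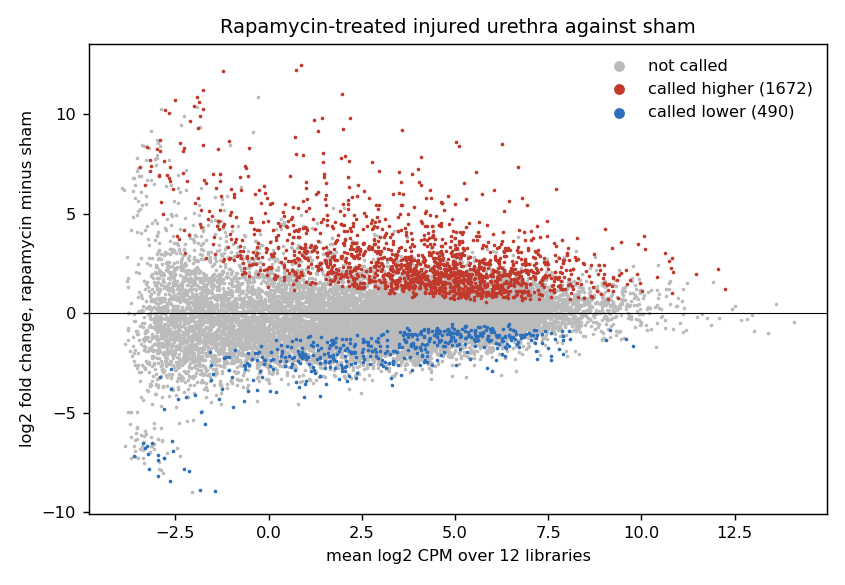
Log2 fold change of rapamycin minus sham (vertical axis) against mean log2 CPM over the 12 libraries (horizontal axis) for the 17521 tested genes; each point is a gene, red where called higher (1672), blue where called lower (490) and grey where not called. Called genes span all expression levels, and most changes beyond a log2 fold change of 4 are upwards.

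The balance of directions was also counted from single libraries. All 3 rapamycin libraries lay above all 3 sham libraries for 4171 genes (23.8% of those tested) and below them for 4985 (28.5%), together 52.3%. Without rapamycin replicate 2, the other 2 rapamycin libraries lay above sham for 5705 genes (32.0% of 17850 tested) and below for 5360 (30.0%). The excess of lower genes was then not seen. This count sets 2 libraries against 3 after a new filter and scaling, and it was not made without replicate 1 or 3. With all libraries, of the genes above sham 1656 (39.7%) were called higher, and of those below 490 (9.83%) were called lower. The genes without overlap had median log2 fold changes of 1.42 when higher and -1.26 when lower. Their median SD of log2 CPM between rapamycin libraries was 0.719 when higher and 0.928 when lower, beside 0.142 and 0.156 between sham libraries. Rapamycin replicate 2 was the most extreme rapamycin library for 71.3% of the higher and 74.2% of the lower genes without overlap. At an unadjusted p under 0.05, edgeR gave 4137 genes higher (23.6%) and 2772 lower (15.8%), and 3376 and 1911 without rapamycin replicate 2. The median SD of log2 CPM over all tested genes was 0.174 in sham and 0.773 in rapamycin (n = 3 libraries each). It was 0.514 in injury and 0.185 in TDN, and the fit gives all 4 groups 1 common estimate. The p-values therefore do not carry the full spread of the rapamycin libraries.

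The genes given by ID were called genes whose libraries did not overlap and whose higher group averaged 5 CPM or more. These criteria were met by 1453 higher and 381 lower genes, and the first 2 in each direction by fold change were taken. Because they were picked for the size of their change in these libraries, their fold changes are likely inflated. Both higher genes had no counts in sham and at least 26 counts in every rapamycin library. ENSRNOG00000050586 had 0 counts in the 3 sham libraries and stood at 30.6, 7.07 and 2.92 CPM in rapamycin replicates 1, 2 and 3. The mean of 13.5 ± 14.9 CPM (SD, n = 3) exceeded sham by at least 249.9-fold when sham was set at 3 counts per library, or 0.0542 CPM (edgeR adjusted p = 0.0188; 7.13e-13 to 0.111 over the alternatives). Replicate 1 alone held most of this level, and the bound was 92.2-fold without it and 309.6-fold without replicate 2. These bounds take the rapamycin mean as given and do not cover the spread between its libraries. The call was lost in the fit of the 6 libraries alone and without any 1 sham library.

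ENSRNOG00000060413 also had 0 counts in the 3 sham libraries, and stood at 23.3, 0.880 and 10.2 CPM in rapamycin replicates 1, 2 and 3. All rapamycin libraries were above sham, with replicate 2 the lowest at 26 counts. The mean of 11.5 ± 11.3 CPM (SD, n = 3) exceeded the same sham floor by at least 211-fold (edgeR adjusted p = 0.0251; 2.13e-10 to 0.111 over the alternatives). The bound was 102-fold without replicate 1 and 309-fold without replicate 2. It too does not cover the spread between the rapamycin libraries. The call was lost in voom, with a minimum log2 fold change of 1, in the fit of the 6 libraries alone, without rapamycin replicate 1 and without any 1 sham library.

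Both lower genes had fewer than 10 counts in rapamycin replicates 1 and 2. ENSRNOG00000015365 stood at 10.98, 8.48 and 9.57 CPM in sham replicates 1, 2 and 3 and at 0.0420, 0.169 and 1.30 CPM in rapamycin replicates 1, 2 and 3. The last values rest on 2, 5 and 70 counts, and replicate 3 was the highest of the rapamycin libraries and still below all sham libraries. The gene fell from 9.68 ± 1.25 to 0.504 ± 0.693 CPM (SD, n = 3 each). Its log2 fold change was -4.23 with a standard error of 1.07 (edgeR adjusted p = 0.0398; 0.000152 to 0.122 over the alternatives). The log2 fold change was -6.59 without rapamycin replicate 3 and -3.79 without replicate 2. The call was lost in 12 of 23 alternatives, among them leaving out any 1 sham library, any 1 TDN library, injury replicate 2, or rapamycin replicate 1 or 2.

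ENSRNOG00000005639 stood at 8.40, 13.8 and 18.6 CPM in sham replicates 1, 2 and 3 and at 0.168, 0.271 and 1.84 CPM in rapamycin replicates 1, 2 and 3. Replicate 3 was again the highest rapamycin library, and the groups did not overlap. The gene fell from 13.6 ± 5.1 to 0.759 ± 0.937 CPM (SD, n = 3 each). Its log2 fold change was -4.14 with a standard error of 1.13 (edgeR adjusted p = 0.0460; 0.000430 to 0.138 over the alternatives). The log2 fold change was -5.97 without rapamycin replicate 3 and -3.70 without replicate 2. The call was lost in 14 of 23 alternatives, among them leaving out any 1 sham or TDN library, injury replicate 2, or rapamycin replicate 1 or 2.

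**Figure D5:**
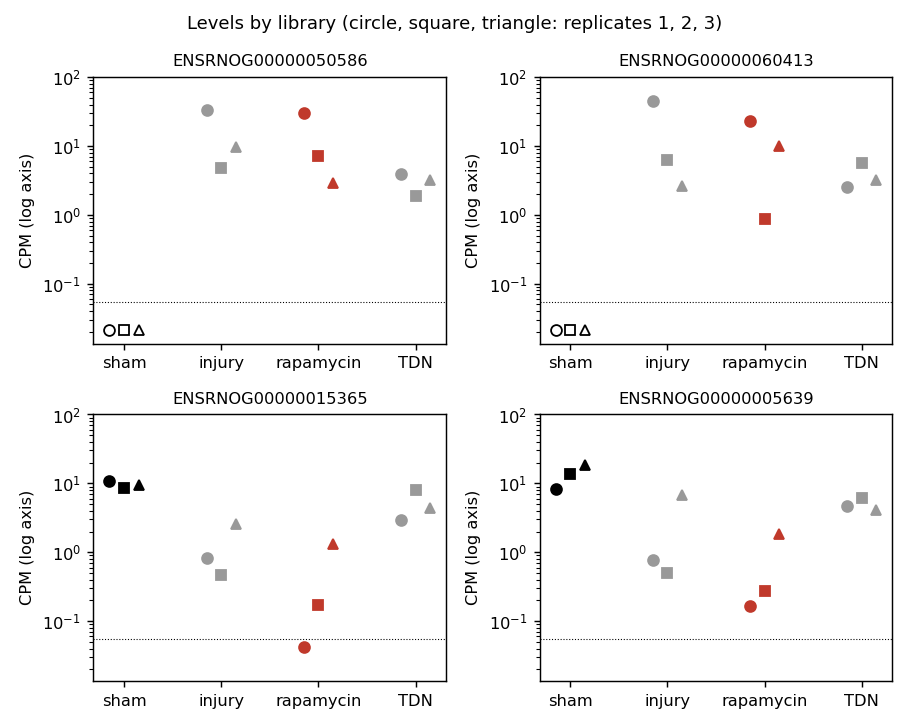
CPM (log axis) of 4 genes in each library of the 4 groups; circles, squares and triangles are replicates 1, 2 and 3, black for sham, red for rapamycin and grey for the other groups. Open symbols are libraries with 0 counts, drawn below the dotted line, which marks the floor of 3 counts in a sham library (0.0542 CPM). The upper genes have 0 counts in sham and 0.880 to 30.6 CPM in rapamycin, and the lower genes fall from 8.40 to 18.6 and 8.48 to 10.98 CPM in sham to at most 1.84 CPM in rapamycin.

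Whether the distance from sham was particular to rapamycin was asked by setting rapamycin directly against the other injured groups. Against injury without treatment, edgeR called 0 of 17521 genes (0%). Without adjustment, p was under 0.05 for 767 genes (4.38%), 523 of them higher and 244 lower, and the lowest adjusted p was 0.241. This unadjusted count was 1040 without rapamycin replicate 2, 3521 without rapamycin replicate 3, 1323 without injury replicate 1, 1255 in DESeq2, 2230 in voom with sample quality weights and 186 in a fit of the 6 libraries compared. DESeq2 called 21 higher and 9 lower, voom 0 with and without sample quality weights, and edgeR 3 higher without rapamycin replicate 3. The median half-width of the 95% interval of a log2 difference was 0.998, so differences of about that size could not be resolved for a typical gene. That interval is unadjusted, and after adjustment over 17521 genes larger differences could also go uncalled. The 1672 genes higher in rapamycin than in sham had a median of 2.26 in rapamycin minus sham and 1.44 in injury minus sham, and the 490 lower genes had -1.66 and -1.23. Both comparisons use the same sham libraries, and the genes were chosen in the first. Single injury libraries had medians of 1.90, 1.44 and 0.50 for the higher genes in replicates 1, 2 and 3, so their range overlapped that of rapamycin (1.15 to 2.76).

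Against TDN, edgeR also called 0 of 17521 genes (0%), with 0.161 as the lowest adjusted p. Without adjustment, p was under 0.05 for 24.3% of genes, with 3158 higher (18%) and 1102 lower (6.29%) in rapamycin. The 4260 genes of this unadjusted count became 2043 without rapamycin replicate 2, 7958 without rapamycin replicate 3, 2805, 2327 and 2479 without TDN replicates 1, 2 and 3, 8096 in voom with sample quality weights and 2785 in a fit of the 6 libraries compared. The other tools differed: DESeq2 called 1575 higher and 163 lower, and voom called 0, or 3052 higher and 2941 lower once its libraries were weighted by quality. Without rapamycin replicate 3 edgeR called 2895 higher and 1893 lower. The genes higher in rapamycin than in sham had a median log2 difference of 0.54 in TDN minus sham, and the lower genes -0.61. The TDN libraries had medians of 0.42 to 0.72 for the higher genes, below all 3 rapamycin libraries, and of -0.66 to -0.56 for the lower genes, above all 3 rapamycin libraries. The genes were chosen on the rapamycin libraries, which by itself favours the larger difference in rapamycin.

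The 4 genes given by ID were compared in the same way. Rapamycin minus injury was -0.23 (95% interval -2.24 to 1.78) for ENSRNOG00000050586, -0.66 (-3.26 to 1.94) for ENSRNOG00000060413, -1.31 (-3.45 to 0.83) for ENSRNOG00000015365 and -1.79 (-4.08 to 0.50) for ENSRNOG00000005639 on the log2 scale, with edgeR adjusted p from 0.902 to 0.957. The intervals span 0 for all 4 genes and leave room for differences in either direction. Injury replicates 1, 2 and 3 held 33.2, 4.77 and 9.77 CPM of ENSRNOG00000050586, 45.5, 6.24 and 2.63 CPM of ENSRNOG00000060413, 0.823, 0.462 and 2.55 CPM of ENSRNOG00000015365, and 0.764, 0.501 and 6.75 CPM of ENSRNOG00000005639. Each of these ranges overlapped that of rapamycin. Rapamycin minus TDN was 2.18 (95% interval 0.07 to 4.28) for ENSRNOG00000050586, 1.58 (-1.07 to 4.24) for ENSRNOG00000060413, -3.31 (-5.58 to -1.05) for ENSRNOG00000015365 and -2.68 (-5.04 to -0.33) for ENSRNOG00000005639, with edgeR adjusted p from 0.161 to 0.382. The intervals that exclude 0 are unadjusted, and none of the 4 genes passed the test over all genes. The TDN libraries held 2.92 to 8.07 CPM of ENSRNOG00000015365 and 4.06 to 6.05 CPM of ENSRNOG00000005639, above every rapamycin library for both genes. They held 1.88 to 3.93 CPM of ENSRNOG00000050586 and 2.53 to 5.69 CPM of ENSRNOG00000060413, overlapping the rapamycin ranges of 2.92 to 30.6 and 0.880 to 23.3 CPM.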

How the data were processed

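Poly(A)-enriched RNA of 12 urethral libraries was sequenced, per the labels' protocols. The authors deposited whole-number counts per Ensembl gene, without normalization, and the submitters' processing notes name rat build Rnor 6.0. Aligner, counter, annotation and strandedness: not given in the sources used here. Whether reads of near-identical, overlapping or antisense genes were told apart is therefore not known. Of 15 library columns, 12 matched the labels and 3 were not used.

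Groups came from the treatment labels. Counts were tested with edgeR 4.0.16 (quasi-likelihood, R 4.3.3): TMM scaling, default expression filter (17521 of 32623 genes kept), 1 coefficient per group over all 12 libraries, 8 residual degrees of freedom, biological coefficient of variation 0.504, and Benjamini-Hochberg adjustment over all tested genes. CPM values use TMM factors, and log2 CPM a prior count of 2. Standard errors are the absolute log2 fold change over the square root of F. The floor for absent genes was 3 counts per library and covers counting error only. Alternatives were DESeq2 1.42.0, limma 3.58.1 voom, other scalings and filters, a block for the replicate number and the omission of each library in turn.

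The comparison, gene lists and naming rule were chosen with earlier results of these data known. The rule named genes with an adjusted p under 0.05, libraries that did not overlap, 5 CPM or more in the higher group and an informative symbol, ranked by fold change, with members of pathway and marker lists. Without symbols the lists were not evaluated, no promoter sequence was matched, and 2 IDs per direction are given, as the rule provides.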

Additional observations from a re-analysis of the deposited data

How the results depend on the processing

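For rapamycin against sham, the alternatives called between 1 and 7249 genes when 1 library was left out (1 to 3998 higher, 0 to 3251 lower), beside 2162 (1672 higher, 490 lower). DESeq2 called 5763 (3664 higher, 2099 lower), voom 874 higher and 909 lower, voom with sample quality weights 8440 (4229 and 4211), total count scaling 731 (577 and 154), no filter 1157 (964 and 193), the fit of the 6 libraries alone 34 (33 and 1), and a minimum log2 fold change of 1 gave 40 (38 and 2). Upper quartile scaling called 310 lower. The count stayed within 1.5 times in 6 of 23 alternatives; the cause of the other shifts was not tested. Rapamycin against injury gave 30 genes in DESeq2 and 0 to 3 when 1 library was left out. Rapamycin against TDN gave 1738 in DESeq2, 5993 in voom with sample quality weights and 0 to 4788 when 1 library was left out. Total count scaling moved the median log2 fold change of all genes to -0.37 and upper quartile scaling to -0.14, beside -0.05. With the replicate number as a block, 1417 genes were higher and 1169 lower in rapamycin than in sham, and 0 passed against injury or TDN. Deviations of same-numbered rapamycin and sham libraries correlated at 0.196, -0.085 and -0.052. Those of rapamycin and injury correlated at 0.092, 0.156 and 0.550, and those of rapamycin and TDN at 0.043, 0.002 and -0.001. In no comparison did all 3 pairs pass 0.1. The labels state no pairing, and the main fit did not treat the numbers as pairs. The 4 genes given by ID kept their direction in all alternatives, with log2 fold changes of 9.88 to 12.9 for ENSRNOG00000050586, 9.57 to 12.8 for ENSRNOG00000060413, -6.59 to -3.65 for ENSRNOG00000015365 and -5.97 to -3.62 for ENSRNOG00000005639. These genes were picked for libraries that did not overlap, so the same counts could hardly give a reversal. Their constant direction is therefore no independent check. The fitted values of the first 2 genes are set against 0 sham counts and are no bounds. Depth limits what can be said below about 3 counts per library.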
